A study of Mus musculus with 6 samples.

Results

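Oxidative phosphorylation is carried out by 5 protein complexes of the inner mitochondrial membrane, and the 93 nuclear genes described here encode their subunits and related factors. They were chosen by symbol alone, as all genes in the count tables whose names begin with *Nduf*, *Uqcr*, *Cox4* to *Cox8* or *Atp5*, together with *Sdha* to *Sdhd* and *Cyc1*, which gave 93 of 23366 genes. By complex, 43 of them were assigned to complex I, 4 to complex II, 9 to complex III, 20 to complex IV and 17 to complex V. *Ndufa4* and *Ndufa4l2* were counted with complex IV, where the *Ndufa4* protein sits. *Atp5s* and *Atp5sl*, which RefSeq names *Dmac2l* and *Dmac2*, were counted with complex V by their older names only. No mitochondrially encoded subunit is among the genes counted, so the values below cover the nuclear part of the complexes only.

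Complexes I and II pass electrons from NADH and succinate to coenzyme Q, complex III hands them on to cytochrome c, and complex IV passes them to oxygen. Complexes I, III and IV pump protons while they do so, and complex V, the ATP synthase, lets the protons flow back and makes ATP. In the intestine the pathway is known as a main source of ATP for mature absorptive cells.

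The libraries came from small intestine epithelium of mouse embryos at E13.5, sorted by the surface protein EpCAM, with 500 cells in each and 15 cycles of cDNA amplification. The genotype of the 3 mutant libraries is Shh-cre-egfp:Tcf7l1 lox/lox, in which Cre made from the *Shh* locus deletes a floxed exon of *Tcf7l1*, a transcription factor of the WNT pathway, in gut epithelium. The other 3 are from wild type embryos, and no treatment is described for either group. Libraries with Cre and intact *Tcf7l1* are not among the 6, so the Cre allele and the dose of *Shh* cannot be told apart from the loss of *Tcf7l1*. The series calls its libraries biological replicates but does not say how embryos were pooled, so the p-values measure the spread between these libraries.

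Total counts ran from 18216537 to 20397278 per library. *Tcf7l1* averaged 438 normalized counts in the wild type and 49.1 in the mutant libraries (log2 fold change -3.16), and *Shh* 481 and 198 (-1.28). Of the sex-linked genes checked, *Xist* had 0 counts in every wild type library and was present in every mutant library, while *Ddx3y*, *Eif2s3y*, *Uty* and *Kdm5d* were present in every wild type library and at 0 in every mutant library. Sex therefore cannot be told apart from genotype in any comparison below. Epithelial markers were high in all libraries, with *Epcam* between 47961 and 64100 normalized counts. The 13 listed mesenchyme markers, of which 12 are in the tables, summed to 1330 to 1636 in the wild type and 1050 to 1537 in mutant libraries, endothelial markers to at most 21.7, and blood markers to 44.1 to 111.8. In bulk RNA, fewer cells of a type and less RNA per cell cannot be told apart.

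RefSeq promoter windows of GRCm38.p6, each reaching from 250 bases before to 50 bases after a transcription start, were searched because the nuclear genes of this pathway are known to share binding letters of NRF1, of ETS factors such as GABP, and of YY1. The table held 82 windows for 76 members, and none for the other 17, *Uqcrq*, *Cyc1*, *Cox4i1* and *Atp5a1* among them. The NRF1 letters GCATGCGC stood on either strand in 12 member windows (14.6%), against 2.71% of all 32851 windows. For the YY1 letters AAGATGGC the count was also 12 (14.6%), against 2.75%, and for the ETS letters CCGGAAGT it was 5 (6.1%), against 3.89%. At least one of the 3 was present in 34.1% of member windows and 8.83% of all windows. All windows cover 27025 genes, many of them not among the 12501 genes tested here. They were not matched to the members in expression or base composition. A match of letters is a description and not a shown binding site.

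The windows below carry these letters in 5 genes that are described in the results, with the matched letters in capitals. They show the forms in which the letters occur: as NRF1 palindromes that match on both strands in *Ndufaf4*, *Uqcrc1* and *Cox6a1*, as a pair of ETS matches in *Cox8a*, and as a YY1 match close to the start in *Ndufs7*.
Ndufaf4, chr4:24897833-24898132, plus strand: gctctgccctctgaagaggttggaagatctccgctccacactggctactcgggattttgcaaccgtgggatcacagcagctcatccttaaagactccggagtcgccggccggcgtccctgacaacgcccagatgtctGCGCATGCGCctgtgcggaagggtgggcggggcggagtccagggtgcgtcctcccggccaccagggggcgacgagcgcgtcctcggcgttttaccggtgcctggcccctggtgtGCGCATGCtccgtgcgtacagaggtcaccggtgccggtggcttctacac
Uqcrc1, chr9:108936398-108936697, plus strand: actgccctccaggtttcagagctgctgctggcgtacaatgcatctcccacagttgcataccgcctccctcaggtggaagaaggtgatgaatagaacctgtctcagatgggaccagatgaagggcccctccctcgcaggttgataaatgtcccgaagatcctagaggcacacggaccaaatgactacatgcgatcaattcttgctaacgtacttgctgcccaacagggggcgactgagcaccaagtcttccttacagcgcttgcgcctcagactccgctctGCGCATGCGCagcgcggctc
Cox6a1, chr5:115348909-115349208, minus strand: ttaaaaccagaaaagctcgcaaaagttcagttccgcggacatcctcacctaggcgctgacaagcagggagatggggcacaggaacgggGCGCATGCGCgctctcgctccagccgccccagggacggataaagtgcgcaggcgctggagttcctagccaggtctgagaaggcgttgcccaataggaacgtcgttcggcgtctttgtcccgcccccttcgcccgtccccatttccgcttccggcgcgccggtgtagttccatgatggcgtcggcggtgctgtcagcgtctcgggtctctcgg
Cox8a, chr19:7217567-7217866, minus strand: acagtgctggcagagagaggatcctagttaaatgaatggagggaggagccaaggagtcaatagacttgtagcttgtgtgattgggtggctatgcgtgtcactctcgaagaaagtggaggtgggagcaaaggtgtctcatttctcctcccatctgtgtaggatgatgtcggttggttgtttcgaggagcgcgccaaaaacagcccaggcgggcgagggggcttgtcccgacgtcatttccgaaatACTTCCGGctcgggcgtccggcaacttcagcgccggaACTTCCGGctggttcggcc
Ndufs7, chr10:80249199-80249498, plus strand: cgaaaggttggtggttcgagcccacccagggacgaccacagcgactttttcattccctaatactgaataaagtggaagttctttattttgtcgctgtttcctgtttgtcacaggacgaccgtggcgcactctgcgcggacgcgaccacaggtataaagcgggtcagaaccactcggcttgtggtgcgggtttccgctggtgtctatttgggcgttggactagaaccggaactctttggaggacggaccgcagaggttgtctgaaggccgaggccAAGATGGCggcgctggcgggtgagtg

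Members of all 5 complexes were higher in the mutant libraries. Of the 93 members, 87 passed edgeR's filter on low counts and were tested. By the quasi-likelihood test of edgeR, adjusted by Benjamini-Hochberg over 12501 genes, 53 rose at an adjusted p under 0.01, where 7.32% of all tested genes rose, and 0 fell, where 7.61% of all tested genes fell. The rises were small, from 1.20-fold to 1.80-fold. They also depended on trends with transcript length and level over all genes, described below. With both trends removed together, a setting chosen after seeing the data, 2 of the 87 members and 2.67% of all genes rose. The median log2 fold change was 0.34 over the 87 members and -0.04 over all tested genes. Of the 34 members that did not pass, 31 had a log2 fold change above 0 and 19 an unadjusted p under 0.05. Of all tested genes, 5714 of 12501 had a log2 fold change above 0. Neither share was counted over all genes that did not pass.

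The normalized counts of every mutant library lay above those of every wild type library for 74 of the 87 tested members, where 20.8% of all tested genes did so. All 53 members that rose are among them. When a minimum absolute log2 fold change of 0.5 and a mean of 50 or more normalized counts were also required, 6 members were called higher, where 2.78% of all tested genes were, and 0 lower, where 5.83% were. These 6 were *Ndufa12*, *Uqcrq*, *Ndufaf4*, *Atp5g3*, *Cyc1* and *Cox7a2*. Of these, only *Ndufaf4* has the searched letters in its window; those of *Ndufa12*, *Atp5g3* and *Cox7a2* have none, and *Uqcrq* and *Cyc1* have no window. The remaining 47 members that rose thus did so by less than this minimum.

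**Figure D1:**
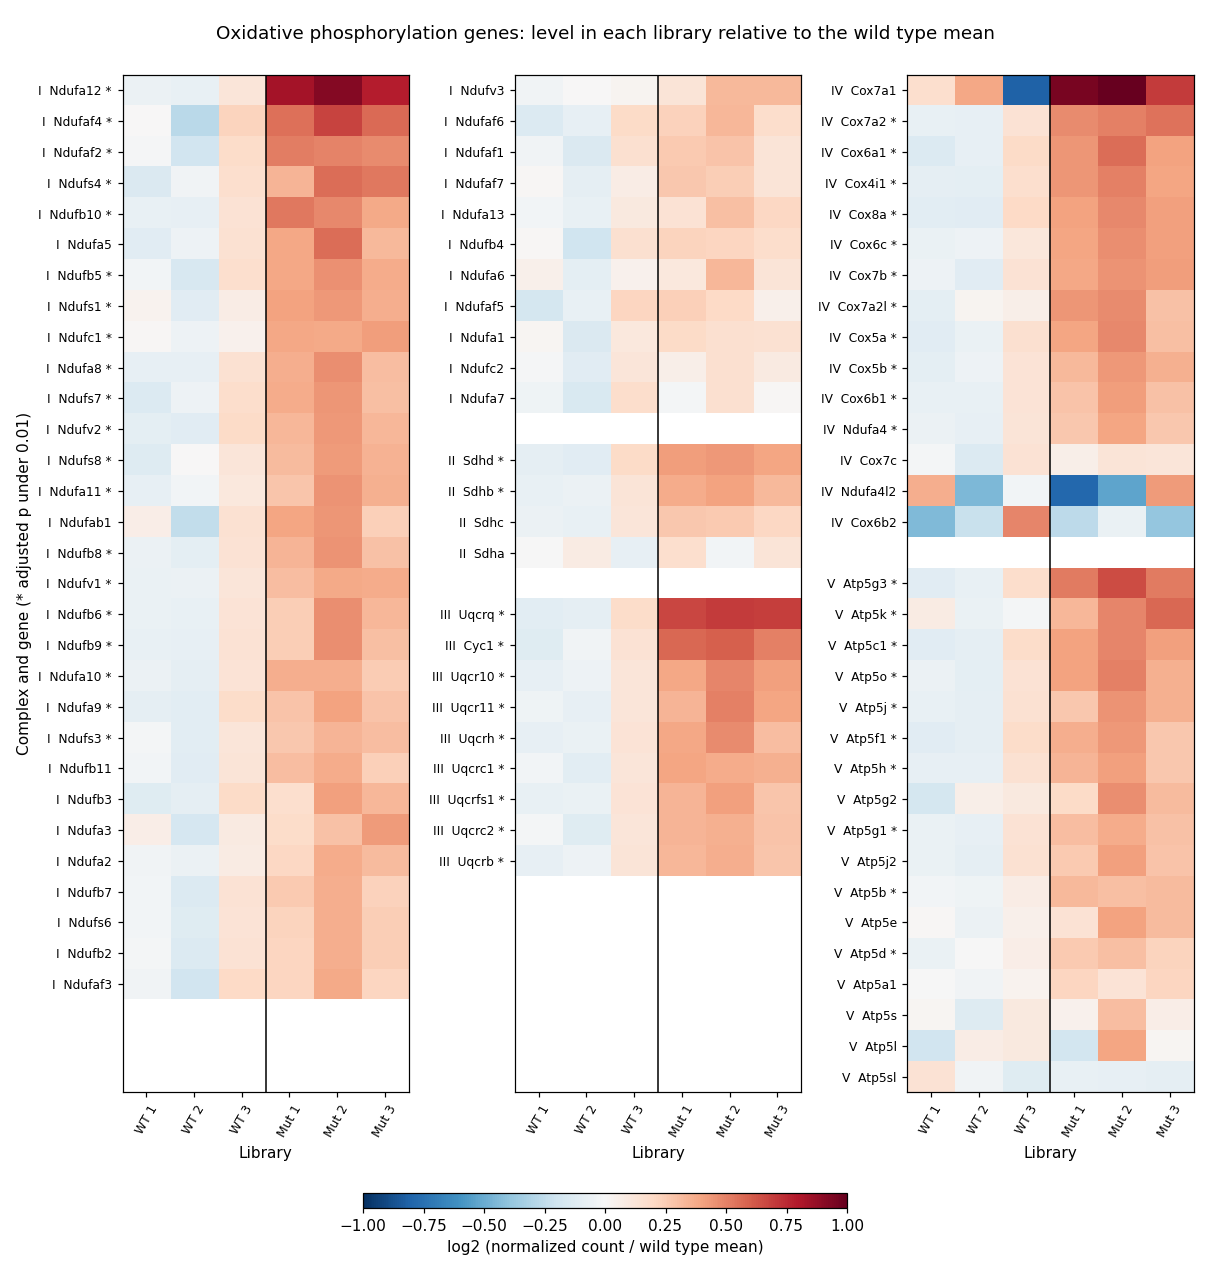
Heat map of 86 of the 87 tested members (rows, grouped by complex and ordered by fold change) in the 6 libraries (columns), coloured by the log2 ratio of the normalized count to the wild type mean of the gene, with a scale that ends at -1 and 1. The wild type columns are pale, with wild type 3 mostly above wild type 1 and 2, and the mutant columns are darker for most genes of all complexes.

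Summed over all members, the normalized counts were 435634, 430727 and 490246 in wild type 1, 2 and 3, against 571119, 586163 and 564001 in mutant 1, 2 and 3. The groups did not overlap, and the mutant mean was 1.27 times the wild type mean. As a share of each library's total count, the members took 2.33, 2.33 and 2.53% in the wild type and 2.82, 2.87 and 2.80% in the mutant libraries. *Atp5b* and *Atp5a1*, the beta and alpha subunits of the ATP synthase, made up 16.1% and 10.9% of the wild type sum. Wild type 3 was the highest of its group for 81 of the 87 members, and mutant 2 of its group for 68. Neither share was counted over all tested genes, so these counts do not show whether such shifts are particular to the members. The median member in wild type 3 was 0.14 (log2) above its wild type mean, against -0.06 and -0.08 in wild type 1 and 2. In the mutant libraries this median was 0.33, 0.41 and 0.31. Without wild type 3, 63 members rose and 19 were called higher, and without wild type 1 or wild type 2, 15 and 18 rose. Of all tested genes, 12.4% rose without wild type 3, and 3.25% and 3.62% without wild type 1 or wild type 2, against 7.32% with all libraries. The share of all genes called was not counted in these settings. Without mutant 1, 2 or 3, 23, 17 and 28 members rose, where 3.59%, 3.47% and 3.92% of all tested genes did. The members' median log2 fold change stayed between 0.30 and 0.43 over these 6 settings.

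Complex I oxidises NADH and is the largest complex. Of its 42 tested genes, 21 rose, with a median log2 fold change of 0.32. Leaving out wild type 1, 2 or 3 gave 4, 4 and 29 that rose, and leaving out mutant 1, 2 or 3 gave 6, 4 and 8. For these settings, here and in the complexes below, 3.25%, 3.62% and 12.4% of all tested genes rose without wild type 1, 2 or 3. Without mutant 1, 2 or 3 it was 3.59%, 3.47% and 3.92%, so these counts moved together with those over all genes. All 7 nuclear core genes rose, at a median of 0.36. *Ndufs1*, the largest iron-sulfur core subunit (chromosome 1, 63190170 to 63223396 in mm9, the build of all gene positions here and below), had 5454, 4919.6 and 5618 normalized counts in wild type 1, 2 and 3, against 7029.6, 7197 and 6854 in mutant 1, 2 and 3. The mutant libraries were all higher (log2 fold change 0.40 ± 0.07 SE, edgeR adjusted p = 8.3e-04). Of its exon bases, 6.57% also lie in exons of *Gm11602*, transcribed the other way. The NADH-binding subunit *Ndufv1* averaged 6968 ± 530.4 in the wild type and 8907 ± 221 in the mutant libraries (mean ± SD, n = 3 here and below). Its partner *Ndufv2* averaged 6700.5 ± 808 and 8639.8 ± 358. The core genes of the arm that leads to coenzyme Q include *Ndufs3*, *Ndufs7* and *Ndufs8*, with log2 fold changes of 0.31, 0.37 and 0.36.

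Of the 28 tested accessory subunits of complex I, which surround the core, 12 rose. Their log2 fold changes had a median of 0.32 and ran from 0.05 to 0.85. Their median normalized count was 1944, against 6179 for the core genes. Among all members, 3 of 16 with mean counts from 1000 to 2000 rose, and 23 of 28 from 2000 to 5000. The part of level in the lower share of accessory subunits that rose was not tested. *Ndufa12* (chromosome 10, 93661700 to 93684188), an accessory subunit, had the largest log2 fold change of the members that rose, with 583, 579 and 662 normalized counts in wild type 1, 2 and 3, against 1082, 1149 and 1049 in mutant 1, 2 and 3. The groups lay far apart compared with the spread within each (log2 fold change 0.85 ± 0.11 SE, edgeR adjusted p = 5.9e-05). At the other end *Ndufa7* averaged 1948 ± 227 in the wild type and 2019 ± 136 in the mutant libraries, and the groups overlapped. *Ndufs5*, also an accessory subunit, was listed at 0 counts in all 6 libraries. Such a count allows up to 3 assignable reads in each, and does not bound the level of the transcript. Only reads that mapped uniquely were counted, according to the paper. A sequence up to 99.5% identical, covering 64.3% of its transcript, lies elsewhere in mm9. The part of this copy in the zero was not tested.

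Of the 7 *Ndufaf* assembly factors, which build complex I and are not part of it, 2 rose. Their median normalized count was lower still, at 1278. *Ndufaf4* (chromosome 4, 24825230 to 24832148), whose promoter window above holds 3 NRF1 matches, counting both strands, had 2243, 1859 and 2618 normalized counts in wild type 1, 2 and 3. In mutant 1, 2 and 3 it had 3280.3, 3572 and 3319, all above the wild type libraries (log2 fold change 0.60 ± 0.10 SE, edgeR adjusted p = 6.2e-04). *Ndufaf2* averaged 655 ± 85.1 and 923 ± 12.7. The other 5 had log2 fold changes from 0.17 to 0.27 and did not pass.

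Complex II is succinate dehydrogenase, which is also an enzyme of the tricarboxylic acid cycle. Of its 4 genes 2 rose, and 0, 2 and 3 did so without wild type 1, 2 or 3 and 1, 1 and 2 without mutant 1, 2 or 3. The iron-sulfur subunit *Sdhb* (chromosome 4, 140517118 to 140535108) averaged 9132 ± 720.3 in the wild type and 11751 ± 325 in the mutant libraries (log2 fold change 0.36, edgeR adjusted p = 0.0015). The membrane anchor *Sdhd* (chromosome 9, 50404443 to 50411954) rose from 13698 ± 1670.2 to 18279 ± 248. The other anchor, *Sdhc*, had a log2 fold change of 0.25 with no overlap between the groups, but its adjusted p was 0.017. *Sdha*, the flavoprotein that oxidises succinate, had 7204, 7632 and 6844 in wild type 1, 2 and 3, against 8139, 7074 and 7882 in mutant 1, 2 and 3. The libraries of the groups overlapped for *Sdha* (log2 fold change 0.09 ± 0.07 SE, edgeR adjusted p = 0.38), and its sign turned with library size as the only scaling.

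In complex III, which oxidises coenzyme Q, all 9 genes rose, at a median log2 fold change of 0.39 and no overlap between groups. *Cyc1* (chromosome 15, 76173953 to 76176364), cytochrome c1, which passes electrons to cytochrome c, had 10562, 11179.7 and 12697 normalized counts in wild type 1, 2 and 3, against 17102, 17380.5 and 16250 in mutant 1, 2 and 3. The lowest mutant library was above the highest wild type library (log2 fold change 0.56 ± 0.07 SE, edgeR adjusted p = 6.0e-05). The small subunit *Uqcrq* (chromosome 11, 53241424 to 53244333) had 1791, 1809 and 2186 in wild type 1, 2 and 3, against 3061, 3124 and 3116 in mutant 1, 2 and 3. The mutant libraries lay close together, and the difference was the largest in this complex (log2 fold change 0.68 ± 0.09 SE, edgeR adjusted p = 4.2e-05). The other core genes were *Uqcrc1* (0.37), *Uqcrc2* (0.33) and the Rieske protein *Uqcrfs1* (0.34), given here as log2 fold changes. The count of 9 became 3, 4 and 9 without wild type 1, 2 or 3 and 5, 4 and 6 without mutant 1, 2 or 3.

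Complex IV is cytochrome c oxidase. Of its 11 ubiquitous nuclear subunits, 10 rose, as did *Cox7a2l*, a supercomplex factor (log2 fold change 0.40). These 11 rises became 4, 4 and 11 when wild type 1, 2 or 3 was left out and 6, 4 and 7 when mutant 1, 2 or 3 was. *Cox7a2* (chromosome 9, 79603048 to 79607660) had 2154, 2148 and 2505 normalized counts in wild type 1, 2 and 3, against 3142, 3213 and 3298 in mutant 1, 2 and 3, with no overlap (log2 fold change 0.50 ± 0.08 SE, edgeR adjusted p = 3.7e-04). *Cox6a1*, whose window is shown above, rose from 5151 ± 649 to 7127 ± 404, and *Cox4i1*, a regulatory subunit, from 11047 ± 1208 to 15044 ± 580.1. *Cox8a*, with its pair of ETS matches, rose from 3923 ± 501 to 5290.2 ± 158. *Cox7b*, *Cox6b1* and *Ndufa4* also rose, by 0.42, 0.34 and 0.31 on the log2 scale. The exception was *Cox7c*, with 2912, 2691 and 3256 in wild type 1, 2 and 3, against 3078, 3234 and 3209 in mutant 1, 2 and 3. Its groups overlapped (log2 fold change 0.10, adjusted p = 0.37).

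**Figure D2:**
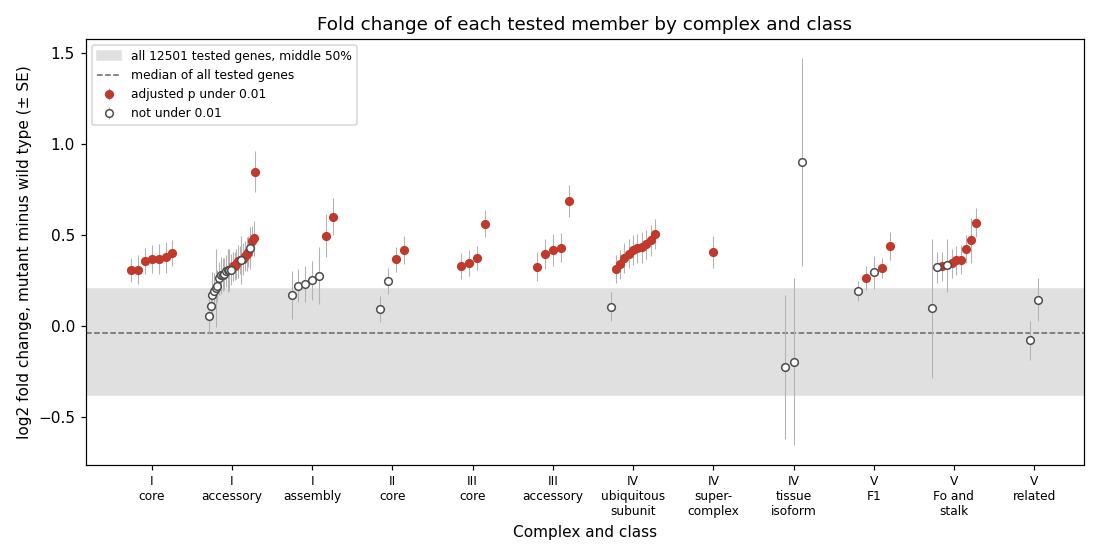
Log2 fold change (mutant minus wild type, ± SE of the edgeR fit) of each tested member by complex and class, with filled points for an adjusted p under 0.01, the grey band for the middle 50% of all 12501 tested genes and the dashed line for their median. The core genes of complex I and all genes of complex III are filled, while the tissue isoforms of complex IV are open, with wide errors.

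Several subunits of complex IV have isoforms known from muscle, testis or hypoxic cells, and in this epithelium those isoforms were scarce in both groups. *Cox8b* and *Cox8c* were at 0 counts in all libraries, and *Cox6a2* had 1 count in mutant 1 and 0 elsewhere. *Cox4i2*, known from lung and hypoxia, had 13, 7 and 7 counts in the wild type and 5, 3 and 0 in the mutant libraries, and *Cox7b2* 8, 5 and 4 against 1, 0 and 3. Neither reached the filter, so neither was tested. *Cox7a1*, the muscle and heart form, had 16.9, 19.6 and 8.55 normalized counts in the wild type and 29.0, 30.9 and 24.3 in the mutant libraries, with no overlap (log2 fold change 0.90 ± 0.57 SE, edgeR adjusted p = 0.26). Per length, *Cox7a1* stood at 2.11 RPKM in wild type and *Cox7a2* at 154. *Cox6b2* and *Ndufa4l2* overlapped between groups, with log2 fold changes of -0.23 and -0.20. Their signs turned when 1 library was left out: *Cox6b2* without wild type 3, and *Ndufa4l2* without wild type 1 or mutant 1.

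**Figure D3:**
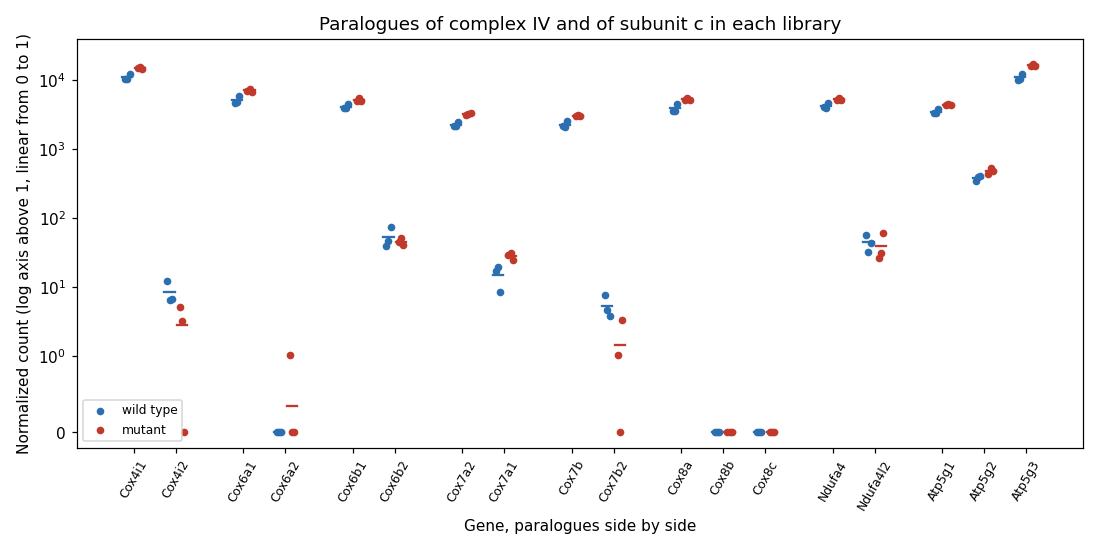
Normalized counts of complex IV subunits beside their tissue isoforms, and of the 3 genes for subunit c of the ATP synthase, in each library (points, 3 per group) with group means as lines, on an axis that is logarithmic above 1 and linear from 0 to 1. The ubiquitous subunits lie above 2000 and their isoforms below 100 in all libraries, and *Atp5g3* is the highest of the subunit c genes.

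Complex V, the ATP synthase, gave 10 rises among 17 tested genes, with a median log2 fold change of 0.32. With wild type 1, 2 or 3 left out there were 4, 4 and 11 rises, and with mutant 1, 2 or 3 left out 5, 4 and 5. In its catalytic F1 part, *Atp5b* (chromosome 10, 127520329 to 127527447), which carries the catalytic sites, had 71313, 70554 and 76465 normalized counts in wild type 1, 2 and 3, against 91239.5, 89809 and 90662 in mutant 1, 2 and 3. These are the highest counts of any member in every library, and the groups did not overlap (log2 fold change 0.32 ± 0.06 SE, edgeR adjusted p = 8.5e-04). *Atp5a1* averaged 49273 ± 1201 in the wild type and 56207 ± 1642 in the mutant libraries, a log2 fold change of 0.19 that missed the threshold (adjusted p = 0.021). In the central stalk *Atp5c1* (0.44) and *Atp5d* (0.26) rose, and *Atp5e* (0.29, adjusted p = 0.028) did not pass. Per length, the F1 genes ranged from 181 to 1945 RPKM in wild type, with *Atp5b* at the top, ahead of *Atp5a1* at 943.

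In the membrane part Fo and the stalks, 7 of 10 genes rose. The proton-driven ring is built of subunit c, which 3 genes encode as the same mature protein. *Atp5g3* (chromosome 2, 73746504 to 73749383) had 10236, 10554 and 12502 normalized counts in wild type 1, 2 and 3, against 15905, 17438 and 15935 in mutant 1, 2 and 3. The gap between the groups was wider than the spread within either (log2 fold change 0.57 ± 0.08 SE, edgeR adjusted p = 9.9e-05). *Atp5g1* rose by less, from 3518 ± 313 to 4405 ± 128 (log2 fold change 0.32). *Atp5g2* averaged 384 ± 38.7 and 482 ± 45.8 and did not pass (adjusted p = 0.10). Per length, wild type levels were 786 RPKM for *Atp5g3*, 261 for *Atp5g1* and 30.4 for *Atp5g2*, but *Atp5g2* has sequence at up to 100% identity covering 100% of its transcript elsewhere in mm9, so its level is uncertain. The level of *Atp5l*, subunit g, at 4.71 RPKM, is uncertain too, since sequence at up to 99.8% identity covers 96.3% of its transcript. *Atp5k*, subunit e, rose with an adjusted p of 0.0099, the highest of the members that rose. *Atp5s* (0.14) and *Atp5sl* (-0.08), counted here by name only, did not pass.

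Across members, levels per length differed far more than their changes. Tested members ranged from 2.11 to 1945 RPKM in wild type, with a median of 189.4, and 60 of 87 exceeded 100. The median was 200.5 RPKM for the core genes of complex I, 401 for those of complex III and 859 for the F1 genes. Lengths are the median over the coding transcripts of a gene in the annotation, which can exceed the form that is expressed, as for *Ndufb2* (4371 bases). Of the 3 members on chromosome X, *Cox7b* rose (0.42), while *Ndufb11* (0.31, edgeR adjusted p = 0.014) and *Ndufa1* (0.17, adjusted p = 0.36) did not pass. The 53 members that rose lie on 17 chromosomes. A near-identical copy elsewhere in mm9, at 95% identity or more over at least 50% of the transcript, was found for 16 members. Of the 15 of these that were tested, 11 rose, as did 42 of the 72 without such a copy. Of the promoter letters, those of NRF1 were in 8 of 44 members that rose and had a window and in 4 of 29 that did not pass. YY1 letters were in 7 and 4, and ETS letters in 5 and 0. These counts were not tested.

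Transcript length and level moved with genotype across all genes, and the members are short and abundant. Among the other tested genes, the median log2 fold change ran from 0.13 for transcripts of up to 600 bases to -0.19 for those of 3000 to 5000 bases. By level it ran from -0.30 below a mean normalized count of 100 to 0.19 above 10000. In each class of either kind that held a member, the members' median was above that of the other genes. Of the 605 other genes with transcripts of up to 1000 bases and a mean normalized count over 1000, 21.3% rose, with a median of 0.22. Of the 43 members in that range, 69.8% rose, with a median of 0.36. When the trend with length was removed and centred on 0, 26 members and 6.49% of all genes rose, and the members' median was 0.21. When the trends with length and level were removed together, a setting chosen after seeing the data, 2 of the 87 members rose, *Ndufa12* and *Uqcrq*, a share no higher than the 2.67% of all genes that rose in that setting. Members with a log2 fold change above 0 then numbered 63, against 84 without the correction, and the median was 0.03, against -0.10 over all genes. Of all tested genes, 5714 of 12501 were above 0 without the correction, and this was not counted with it. With library size as the only scaling, which shifted the median of all genes by -0.11, 24 members rose, the median was 0.24, and 28.2% of all genes past the threshold were higher in mutant, against 49.0% with TMM scaling. The part of amplification, RNA quality and composition of the libraries in these trends was not tested.

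**Figure D4:**
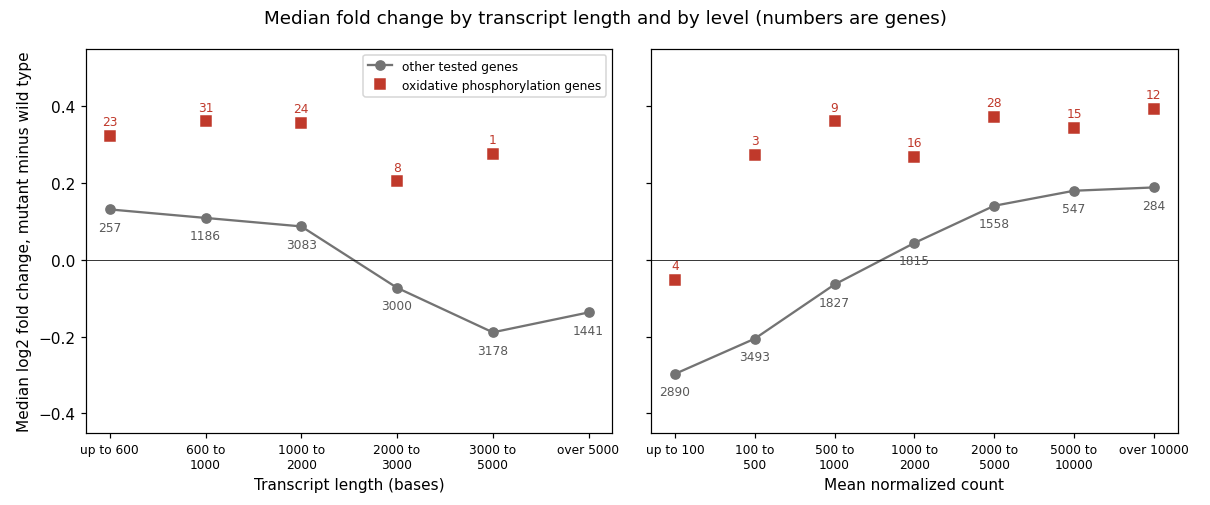
Median log2 fold change (mutant minus wild type) of the members (red squares) and of the other tested genes (grey points) by transcript length in bases and by mean normalized count, with the number of genes printed at each point. The grey medians run from 0.13 to -0.19 with length up to 5000 bases and from -0.30 to 0.19 with level, and the red squares lie above them in each class.

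Genes that act beside the complexes were taken from lists of the pathway. For these and the lists below, 7.32% of all tested genes rose and 7.61% fell. Among genes other than the members, the share that rose climbed with level. It was 0.76% below a mean normalized count of 100, 27.1% from 5000 to 10000 and 31.3% above 10000. The lists were not compared with other genes of their level and length. Of 17 tested genes for electron carriers and coenzyme Q synthesis, 5 rose and 0 fell, with a median log2 fold change of 0.25. *Cycs*, cytochrome c, the carrier between complexes III and IV, had 1552, 1489.8 and 1869 normalized counts in wild type 1, 2 and 3, against 2364, 2514 and 2291 in mutant 1, 2 and 3, with no overlap (log2 fold change 0.55 ± 0.10 SE, edgeR adjusted p = 7.0e-04). *Pdss1*, which makes the side chain of coenzyme Q, rose by 0.55 on the log2 scale, and *Coq5*, *Coq7* and *Etfb* also rose. Of 17 tested genes of the tricarboxylic acid cycle and pyruvate dehydrogenase, 5 rose (*Idh3a*, *Idh3b*, *Suclg1*, *Sucla2* and *Mdh2*) and 0 fell, with a median of 0.23. Among genes associated with the ATP synthase, *Usmg5* (0.63, adjusted p = 5.1e-04) and *2010107E04Rik* (0.41) rose and the inhibitor *Atpif1* (0.24) did not pass.

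Assembly factors outside the *Nduf* names are given separately. Of 28 tested genes that were listed for complexes II to V, 1 rose (*Fastkd2*, 0.49) and 1 fell (*Lyrm7*, -0.94), with a median of 0.21. A role of *Fastkd2* in building these complexes is not shown here. The call of *Lyrm7*, which serves the Rieske protein of complex III, was lost without wild type 2 (adjusted p = 0.017), mutant 2 (0.014) or mutant 3 (0.016). Of 8 further assembly factors of complex I, 0 rose and 1 fell. That gene was *Timmdc1* (chromosome 16, 38498429 to 38522747), with 716, 679.6 and 739 normalized counts in wild type 1, 2 and 3, against 69.4, 45.8 and 52.0 in mutant 1, 2 and 3. Its mutant mean was 7.83% of its wild type mean (log2 fold change -3.67 ± 0.19 SE, edgeR adjusted p = 1.0e-09) and leaving out each library in turn gave -3.86 to -3.55.

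Of 17 tested regulators of mitochondrial biogenesis, 2 rose and 0 fell, with a median log2 fold change of 0.09. *Tfam*, which packages and transcribes mitochondrial DNA, rose from 2977 ± 124 to 3727 ± 113 (log2 fold change 0.32, edgeR adjusted p = 0.0039). The other, *Twistnb*, encodes a subunit of RNA polymerase I and does not act in mitochondria, so its place in the list was an error of the list. *Nrf1* averaged 1199.9 ± 114 and 1243 ± 141, and *Gabpa*, an ETS factor, 2066 ± 102 and 2005 ± 173, with overlap for both. *Yy1* had a log2 fold change of 0.08 (adjusted p = 0.70). The coactivator *Ppargc1a* was scarce, with 2.81, 20.5 and 11.4 in wild type 1, 2 and 3, against 16.6, 40.5 and 53.1 in mutant 1, 2 and 3, so the groups overlapped, and it did not pass (adjusted p = 0.082).

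Markers of enterocytes, the absorptive cells, were higher in sum in the mutant libraries. Of 13 tested, 6 rose and 1 fell, and their summed normalized counts were 28080 to 29390 in the wild type and 35392 to 37327 in mutant libraries. Of 9 epithelial markers, 1 rose and 5 fell, with a median log2 fold change of -0.32. Among the mesenchyme markers 1 of 6 tested fell, *Vim*, and of the 2 tested mesothelium markers 1 fell. None of the 5 tested nerve and neural crest markers passed, their sums being 211 to 254.5 in the wild type and 213 to 412 in mutant libraries. The part of these cell types in the members' rises was not tested.

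**Figure D5:**
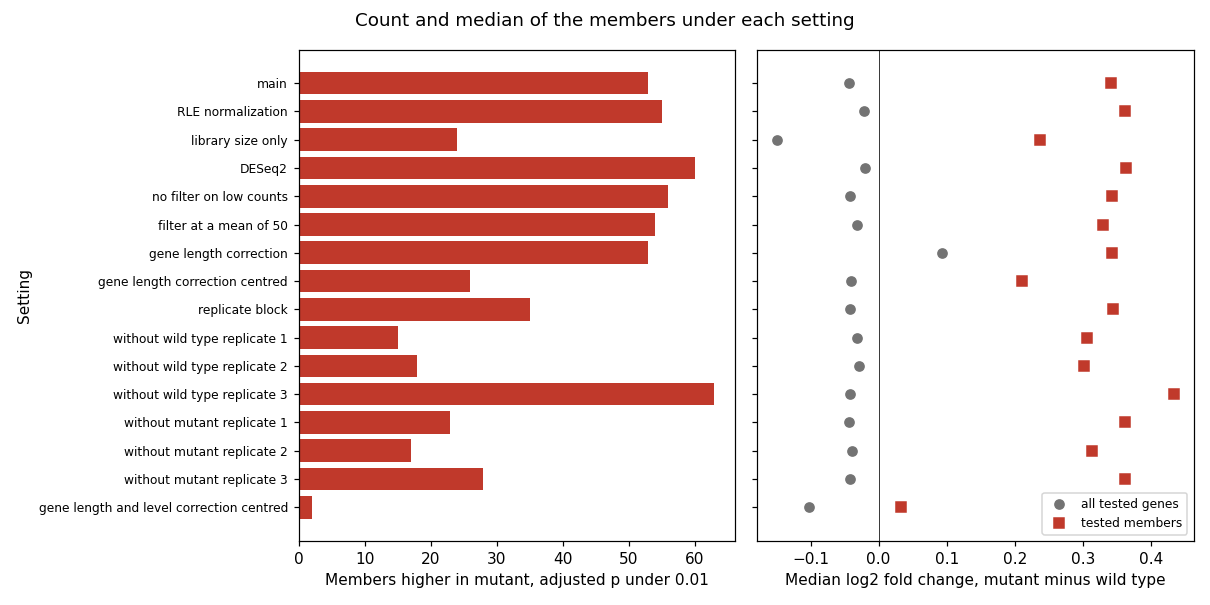
Number of members higher in mutant at an adjusted p under 0.01 (bars) and median log2 fold change of the tested members (red) and of all tested genes (grey) under each setting. The count runs from 2 to 63, and the red median lies to the right of the grey one in every setting.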

How the data were processed

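RNA of 6 libraries (3 mutant, 3 wild type) was measured by sequencing of amplified cDNA. The deposited values are raw counts per gene, which the authors made, per the labels, by alignment to mm9 with STAR 2.5.2b and counting with featureCounts 1.5.1. Whether strand was used is not given in the sources used here. Total counts ran from 18216537 to 20397278, and reads carry no molecular identifiers, so counting error understates the error. Groups were taken from the labels.

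Genes passing edgeR's default filter (12501) were fitted with edgeR 4.0.16 (R 4.3.3), with TMM scaling, a quasi-likelihood test and Benjamini-Hochberg adjustment over all of them. "Rose" and "fell" mean an adjusted p under 0.01, and "called" adds a minimum absolute log2 fold change of 0.5 and a mean normalized count of 50. Normalized counts are counts over TMM-scaled library sizes, and RPKM uses median coding transcript lengths of the mm9 annotation. Copies were searched with BLAST+ 2.17.0. Named members were those called, the largest rises of each complex, the core and F1 genes, the tissue isoforms with their ubiquitous partners, *Atp5g1* to *Atp5g3* and the members on chromosome X, and any other gene named was chosen after its values were seen. One member is counted in all totals but its own values are not reported here. The members, lists and tests were chosen with earlier results of these data known. Alternatives were other scalings and filters, DESeq2 1.42.0, a correction for length, a replicate block and leaving out each library, and the joint correction for length and level and a minimum RPKM of 50 were added after seeing the data. The fit was tested on simulated data.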

Additional observations from a re-analysis of the deposited data

How the results depend on the processing

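No member fell under any of the settings run. Counts of members that rose, against 53, were 24 with library size only, 26 with the length correction centred, 35 with the replicate block and 2 with length and level corrected together, with medians of 0.24, 0.21, 0.34 and 0.033, while 3.93%, 6.49%, 5.26% and 2.67% of all tested genes rose in these settings, so the share of members (2 of 87) under the joint correction did not exceed that of all genes. Members above 0, against 84, numbered 81, 78, 84 and 63. Of all tested genes, 5714 of 12501 were above 0 in the main fit, and this was not counted in these settings. The members called higher, against 6, numbered 2, 1 and 1 for library size only, length centred and the joint correction, and 53 with no minimum fold. The share of all genes called was counted for the main fit only (2.78%), so called members in other settings have no background beside them. Leaving out 1 library gave 15 to 63 that rose, 4 to 19 called and medians of 0.30 to 0.43. Fewer libraries also lowered the counts over all genes, except without wild type 3. The share of all tested genes that rose then ran from 3.25% without wild type 1 to 12.4% without wild type 3, against 7.32% with all libraries. *Ndufa12* and *Uqcrq* rose in every setting. Among the members named by rule, signs turned under the joint correction for *Atp5a1* (-0.19), *Atp5b* (-0.11), *Atp5d* (-0.11), *Atp5e* (-0.017), *Cox6b1* (-0.024), *Ndufa1* (-0.057), *Ndufa4* (-0.052), *Sdha* (-0.16), *Sdhb* (-0.0023), *Sdhc* (-0.10), *Uqcrc1* (-0.0083) and *Uqcrfs1* (-0.011), with the length correction centred for *Ndufa1* (-0.038), and with library size only for *Sdha* (-0.015). Other members given in the text also turned: *Ndufa7* (-0.24), *Cox7c* (-0.22) and *Atp5s* (-0.0044) under the joint correction, and *Ndufa7* (-0.15), *Cox7c* (-0.09) and *Atp5l* (-0.11) with the length correction centred. Leaving out 1 library gave *Cox6b2* -0.41 to 0.11 and *Ndufa4l2* -0.65 to 0.025. The cause was not tested. The uncentred length correction shifted the median of all genes by 0.14, and 74.5% of genes past the threshold were then higher, against 49.0%. Replicate numbers did not pair the libraries (correlations 0.01, -0.04 and -0.02), so the block compares libraries that share only a number. Depth limits *Cox4i2* and *Cox7b2*, which were below the filter.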
